A study of Homo sapiens with 19 samples.

Results

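MYCN-low neuroblastoma cells that had been exposed to doxorubicin were compared between day 3 and day 8 after the drug was washed out. The comparison rests on 4 libraries of 19 in the series, chosen by their labels: day 3 replicates B and C, and day 8 replicates B and C. The cells are SHEP TET21N, an established neuroblastoma line in which doxycycline in the medium switches off a MYCN transgene. All 4 libraries came from cells grown with doxycycline (MYCN-low), given 0.1 µg/ml doxorubicin for 72 h and returned to drug-free medium. For reference the text uses untreated MYCN-low cells (2 libraries), MYCN-low cells at the end of the 72 h exposure (2 libraries), MYCN-low cells at day 14 (1 library, replicate B) and MYCN-high cells, grown without doxycycline, at day 3 and day 8 after the same exposure (4 libraries). The series' design describes biological duplicates. All values are RNA levels in bulk cultures of a single line, so fewer expressing cells and less RNA per cell cannot be told apart.

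Doxorubicin poisons topoisomerase II and leaves DNA double-strand breaks, to which cells respond through p53. The p53 target CDKN1A (p21) inhibits cyclin-dependent kinases, which keeps the retinoblastoma family proteins active and cell-cycle genes repressed. Genes of DNA replication are typically controlled by E2F factors, and genes of G2 and mitosis by the DREAM and MuvB complexes together with B-MYB and FOXM1. The latter complexes are known to act through a CHR element close to the transcription start, often with CCAAT boxes bound by NF-Y just upstream. Cells that stay arrested after DNA damage can become senescent and secrete cytokines such as interleukin 8, here listed under its older symbol IL8.

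The 19 libraries held 16530112 to 27638012 counts in genes. The 4 compared held 23060311 and 19812806 counts at day 3 (B, C) and 19610349 and 27638012 at day 8. Levels are in CPM, the count relative to a library size that was scaled by TMM, a correction for differences in RNA composition. MYCN itself stood at 13.5 to 30.7 CPM in the 9 MYCN-low libraries and at 604 to 765 CPM in the MYCN-high libraries of day 3 and day 8, as the labels state. Of the markers of other cell types, the summed level in the 4 libraries was at most 2.08 CPM for haematopoietic, 1.79 for epithelial, 1.32 for endothelial and 4.22 for Schwann cell and melanocyte genes. The 9 markers of mesenchymal neuroblastoma cells summed to 6602 to 14750 CPM and the 8 adrenergic markers to 65.5 to 132 CPM, with 3 adrenergic markers at 0 in all 4 libraries. FN1 made up much of the mesenchymal sum, at 3402.5 to 10962 CPM, and HAND2 most of the adrenergic sum, at 62.2 to 128 CPM.

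Between day 3 and day 8, 98 genes rose and 6 fell at an adjusted p under 0.05. These were 0.662% and 0.0406% of the 14793 genes tested (edgeR's quasi-likelihood test on all 19 libraries with Benjamini-Hochberg adjustment). Many of the genes that rose serve mitosis or DNA replication: 62 of the 98 belong to 4 lists of proliferation genes and 36 to none of them. The lists hold 69 (G2 and mitosis), 52 (DNA replication), 25 (recombination) and 42 (histones) of the 14793 tested genes. They were chosen with earlier results of these data known. The log2 fold changes of the 98 genes ran from 1.05 to 4.36, with a median of 2.65. The proliferation marker MKI67 (Ki-67) rose from 8.87 and 7.99 CPM at day 3 to 74.1 and 94.8 CPM at day 8. It had been at 853 and 742 CPM in untreated cells, so the mean at day 8 was 10.6% of the untreated mean. IL8 stood at 15.5 and 7.69 CPM at day 3 and at 25.5 and 46.2 CPM at day 8, and this difference did not pass the test.

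In 95 of the 98 genes replicate C was above replicate B at day 8, an order whose share over all tested genes is not given here. The count changed with the library left out: it was 1 without day 3 replicate B, 0 without day 3 replicate C, 112 without day 8 replicate B and 8 without day 8 replicate C, where the spread of the lone library left was taken from the other groups. It was 30 in a fit of only the 4 libraries and 0 when libraries were scaled to the ERCC spike-in RNA (edgeR; 133 genes had an unadjusted p under 0.05 there). All 104 genes kept their direction in each of these fits.

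**Figure D1:**
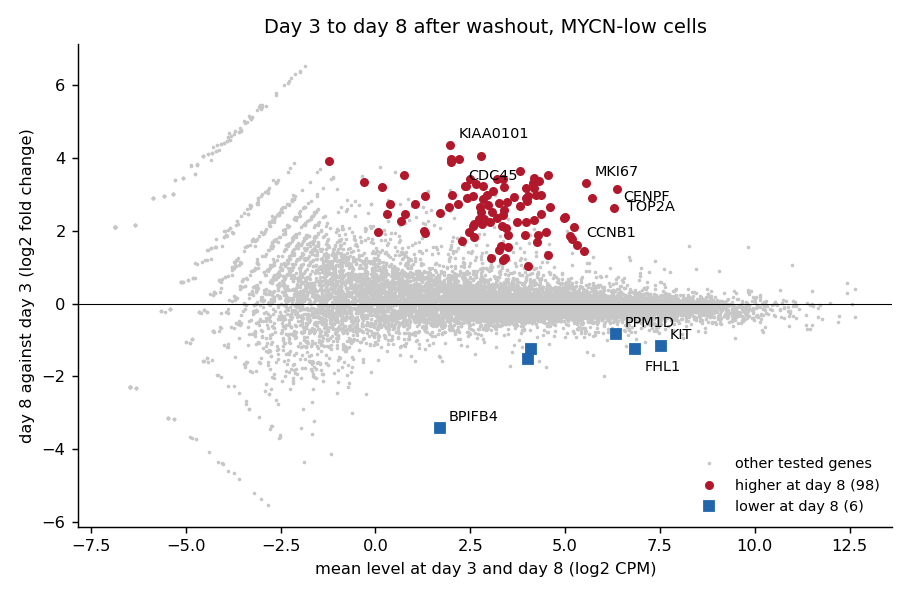
Log2 fold change from day 3 to day 8 against the mean level at both times (log2 CPM) for each tested gene with counts at either time, 1 point per gene. The 98 genes called higher (red) lie between 1.05 and 4.36, and the 6 called lower (blue squares) include KIT, FHL1 and PPM1D at high levels and BPIFB4 at a low level.

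Promoters of some genes that rose are shown first. The genes were picked by hand together with the motifs to mark, so they do not stand for all genes that rose. Each line gives the 110 bases before the RefSeq start (GRCh38.p14), 5′ to 3′ on the gene's strand. They are KIF20A at chr5:138179002-138179111 (plus strand), KIF4A at chrX:70289994-70290103 (plus), CCNB1 at chr5:69167040-69167149 (plus), MKI67 at chr10:128126424-128126533 (minus), RRM2 at chr2:10122629-10122738 (plus), MCM7 at chr7:100101398-100101507 (minus) and HIST1H2AJ, named H2AC14 in RefSeq, at chr6:27814778-27814887 (minus). In the first 5, capitals mark CHR letters (TTTGAA or TTTAAA) and CCAAT boxes (CCAAT or its complement). In MCM7 and HIST1H2AJ, capitals mark an E2F site and CCAAT boxes.
KIF20A: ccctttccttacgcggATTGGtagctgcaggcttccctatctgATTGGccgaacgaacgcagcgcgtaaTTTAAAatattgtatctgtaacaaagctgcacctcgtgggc
KIF4A: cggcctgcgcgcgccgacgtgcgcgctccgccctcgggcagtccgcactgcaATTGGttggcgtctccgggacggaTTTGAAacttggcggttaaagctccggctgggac
CCNB1: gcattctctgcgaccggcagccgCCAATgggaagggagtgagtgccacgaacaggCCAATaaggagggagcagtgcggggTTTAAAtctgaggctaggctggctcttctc
MKI67: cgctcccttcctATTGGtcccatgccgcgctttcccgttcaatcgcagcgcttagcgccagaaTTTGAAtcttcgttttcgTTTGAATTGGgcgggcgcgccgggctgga
RRM2: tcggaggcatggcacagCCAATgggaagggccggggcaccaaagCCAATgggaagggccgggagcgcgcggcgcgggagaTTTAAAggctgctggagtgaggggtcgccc
MCM7: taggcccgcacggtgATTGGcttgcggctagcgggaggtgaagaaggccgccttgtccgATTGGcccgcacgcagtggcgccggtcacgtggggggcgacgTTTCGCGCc
HIST1H2AJ: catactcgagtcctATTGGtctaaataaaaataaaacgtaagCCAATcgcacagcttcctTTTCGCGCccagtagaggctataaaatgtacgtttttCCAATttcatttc

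In KIF20A, which encodes a kinesin of cytokinesis, the CHR letters start at position -41 from the start, with CCAAT boxes at -94 and -67. KIF4A, a chromosome-associated kinesin, has CHR letters at -34 and a CCAAT box at -58. CCNB1 (cyclin B1) has CHR letters at -30 and CCAAT boxes at -87 and -55. MKI67 has CHR letters at -47 and -29, the second running into a CCAAT box at -24, and another CCAAT box at -98. RRM2, a subunit of ribonucleotide reductase, has the letters at -30 and CCAAT boxes at -93 and -66. MCM7, a subunit of the replicative helicase, has an E2F site at -9 and the histone gene HIST1H2AJ has one at -50.

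Over all genes that rose, 83 of 98 had a promoter window of 250 bases before to 50 after the start. On either strand, CHR letters were in 54 of these 83 windows (65.1%), against 16.8% of the 11255 windows of tested genes and 24.3% of all 27305 windows. Among the G2 and mitosis genes that rose, 33 of 38 windows held them (86.8%). CCAAT boxes were in 69.9% of the windows of genes that rose and in 37.0% of those of tested genes. An E2F site (TTTCCCGC, TTTGGCGC or TTTCGCGC) was in 16 windows (19.3%), against 4.47% of tested genes, but in 2 of the 38 mitosis windows (5.26%). The windows of KIAA0101, the gene with the largest rise, and of CDC25C and MYBL2 held no CHR, CCAAT or E2F match. The AP-1 letters TGACTCA or TGAGTCA were in 0 of 83 windows and 3.22% of tested windows, the E-box CACGTG in 10.8% and 9.72%, and a kappaB site in 9.64% and 12.6%. The shorter letter groups occur often by their length, and a match is not a bound site.

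**Figure D2:**
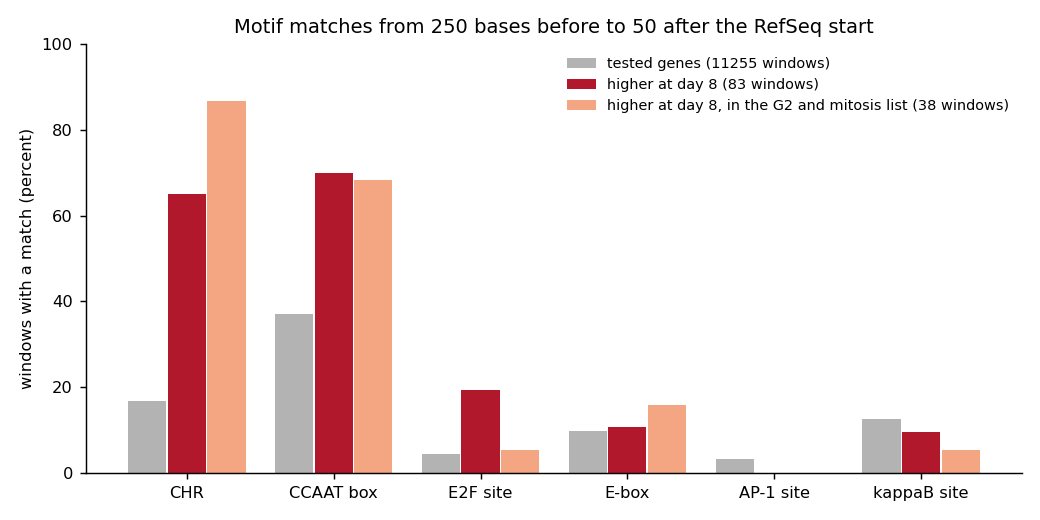
Percent of promoter windows that hold each motif on either strand, for all tested genes (grey), genes higher at day 8 (red) and those of them in the G2 and mitosis list (orange). CHR letters stand at 16.8%, 65.1% and 86.8% of windows, and E2F sites at 4.47%, 19.3% and 5.26%.

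Genes of G2 and mitosis rose most often. Of 69 on the list, 43 were called higher and none lower, and the median log2 fold change was 2.51, against -0.04 over all tested genes. In 68 of the 69, both day 8 libraries lay above both day 3 libraries, a pattern found in 16.8% of tested genes. The exception was BUB3, a spindle checkpoint protein, at 59.8 and 68.1 CPM at day 3 and 57.4 and 64.4 CPM at day 8.

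KIF20A rose from 1.54 and 2.63 CPM to 21.1 and 30.9 CPM, a log2 fold change of 3.65 ± 0.48 (adjusted p = 0.00309, where ± gives the standard error from the fit). KIF14, a kinesin of the midbody, rose from 2.99 and 3.29 CPM to 22.5 and 34.3 CPM (3.18 ± 0.36, adjusted p = 0.00157). KIF4A went from 2.76 and 3.29 CPM to 28.4 and 37.7 CPM. In all 3 motor genes the day 8 libraries were several times above the day 3 libraries, with no overlap.

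NUF2, part of the kinetochore complex that holds microtubules, rose from 1.67 and 1.77 CPM to 9.23 and 16.1 CPM (2.88 ± 0.38, adjusted p = 0.00309). CENPF, a large kinetochore protein, rose from 18.5 and 25.1 CPM to 109 and 159 CPM (2.62 ± 0.35, adjusted p = 0.00309). TOP2A, the topoisomerase II that doxorubicin acts on in dividing cells, rose from 15.0 and 18.6 CPM to 112 and 188 CPM (3.16 ± 0.49, adjusted p = 0.00753). TOP2A and CENPF were, with MKI67, among the more abundant of these transcripts at day 8, on the CPM scale, which does not correct for length.

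CDC20, the activator of the anaphase-promoting complex, rose from 0.543 and 0.405 CPM to 5.80 and 9.20 CPM. BIRC5 (survivin), of the chromosomal passenger complex, rose from 3.12 and 3.84 CPM to 26.4 and 45.3 CPM. KIF2C, a kinesin that depolymerises microtubules, rose from 1.45 and 2.07 CPM to 11.9 and 25.4 CPM. MYBL2 (B-MYB), the activator that joins the MuvB complex at these promoters, rose from 0.905 and 1.01 CPM to 8.84 and 11.9 CPM (3.44 ± 0.64, adjusted p = 0.0190).

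Mitotic cyclins and their kinase fell on both sides of the threshold. CCNB2 (cyclin B2) passed, with a log2 fold change of 2.26. CCNB1 rose from 18.3 and 20.7 CPM to 45.0 and 74.9 CPM (1.62 ± 0.28, adjusted p = 0.0112). CDK1 went from 3.03 and 4.45 CPM to 13.2 and 24.4 CPM, with no overlap, but did not pass (2.34 ± 0.53, adjusted p = 0.0611). CCNA2 (cyclin A2) went from 5.34 and 9.11 CPM to 22.1 and 30.9 CPM and did not pass either (adjusted p = 0.119). LMNB1, a nuclear lamin whose loss is used as a marker of senescence, rose from 6.43 and 10.2 CPM to 25.6 and 35.3 CPM (1.88 ± 0.33, adjusted p = 0.0133).

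Some of the largest rises were in genes outside the lists. KIAA0101 (PCLAF, a PCNA-binding factor) rose from 0.272 and 0.455 CPM to 4.96 and 9.93 CPM, the highest log2 fold change at 4.36 ± 0.56 (adjusted p = 0.00309). FAM111B, a protease-like protein, rose from 0.588 and 0.961 CPM to 10.1 and 15.6 CPM. HJURP, the chaperone that loads the centromeric histone, rose from 0.362 and 0.658 CPM to 4.81 and 10.1 CPM, and IQGAP3, a scaffold protein, from 1.72 and 1.37 CPM to 15.2 and 18.5 CPM. Their levels at day 3 rested on few counts, 6 in replicate B for KIAA0101.

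Fewer genes of S phase passed. Of 52 DNA replication genes 9 were called higher and none lower, with a median of 0.84, and in 41 of them the day 8 libraries lay above both day 3 libraries. Of 25 genes for repair by homologous recombination or the Fanconi pathway 7 were called higher (median 0.98), and of 42 replication-dependent histone genes 3 (median 1.40). None was called lower in either list.

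RRM2 rose from 3.08 and 4.40 CPM to 29.0 and 57.2 CPM (3.53 ± 0.56, adjusted p = 0.00805). CDC45, which joins the MCM helicase when origins fire, rose from 0.679 and 0.405 CPM to 7.61 and 9.82 CPM (3.98 ± 0.52, adjusted p = 0.00309). TK1 (thymidine kinase) rose from 3.03 and 2.83 CPM to 19.2 and 25.6 CPM, and CDC7, a kinase that triggers origin firing, from 2.22 and 2.28 CPM to 6.73 and 8.17 CPM. MCM7, chosen here for its E2F site, stood higher throughout and rose from 24.5 and 24.0 CPM to 56.8 and 75.7 CPM.

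Among repair genes, FANCI rose from 8.69 and 9.56 CPM to 25.8 and 33.2 CPM (1.69 ± 0.32, adjusted p = 0.0190). The exonuclease EXO1 rose from 2.26 and 1.82 CPM to 8.69 and 14.6 CPM. Histone transcripts stayed low: HIST1H2AJ rose from 1.13 and 3.04 CPM to 12.1 and 15.1 CPM, and the linker histone HIST1H1B from 2.04 and 2.02 CPM to 13.2 and 24.6 CPM. Histone genes of this kind are near-identical copies whose reads can be split between them. Their transcripts largely lack a polyA tail, and the labels name both polyA RNA and ribosomal RNA removal, so how far these values reflect the selection of RNA was not tested.

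The calls in these 4 lists changed when a library was left out. Leaving out day 3 replicate B or day 3 replicate C left 0 calls in each list. Without day 8 replicate C they were 5, 1, 0 and 0 (mitosis, replication, recombination, histones), and without day 8 replicate B 48, 12, 7 and 4. The medians stayed above 0 in each case, from 2.05 to 2.81 for G2 and mitosis and from 0.63 to 1.02 for DNA replication.

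The list of E2F factors and G1/S regulators had no call (median 0.20; 5 of 24 genes had an unadjusted p under 0.05, all higher, and DESeq2 called 4). E2F1 stood at 0.498 and 0.860 CPM at day 3 and 3.14 and 3.86 CPM at day 8 (2.37 ± 0.67, adjusted p = 0.226). CCNE2 (cyclin E2) stood at 1.95 and 2.68 CPM, then 7.81 and 14.3 CPM (adjusted p = 0.0926). CCND1 (cyclin D1) was abundant at both times, with 387 and 348 CPM at day 3 and 383 and 595 CPM at day 8, which overlap.

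Most targets of p53, 41 of 46, had a mean at day 8 above that of untreated cells. Of the 46, 33 were called higher than untreated, against 10.2% of tested genes. The list's median log2 fold change against untreated cells was 1.13, and that of all tested genes was -0.02. CDKN1A stood at 1053 and 722 CPM at day 3 and 657 and 569 CPM at day 8. Both times were above the 117 and 81.2 CPM of untreated cells, and below the 72 h libraries (1999.6 and 1529 CPM). Day 3 and day 8 did not overlap, and their difference did not pass (-0.53 ± 0.33, adjusted p = 0.999). MDM2, the ubiquitin ligase that p53 induces against itself, stood at 1061 and 867 CPM, then 818 and 856 CPM. GDF15, a stress cytokine, overlapped (143 and 85.9 CPM, then 123 and 116 CPM), as did BBC3 (PUMA, a death promoter; 20.1 and 21.3 CPM, then 21.0 and 15.1 CPM).

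Of 46 p53 targets 1 was called lower and none higher (0 higher and 5 lower had an unadjusted p under 0.05, and DESeq2 called 1 lower). It was PPM1D (WIP1), the phosphatase that switches off the damage response, which fell from 103 and 104 CPM to 54.7 and 60.4 CPM (-0.84 ± 0.16, adjusted p = 0.0243) and was not called when any of the 4 libraries was left out. In 23 of the 46 both day 8 libraries lay below both day 3 libraries, against 21.8% of tested genes, and the list's median was -0.26 (-0.16 without day 3 replicate B or without day 8 replicate B). Scaling to the ERCC spike-in moved the median of all genes to 0.50 and that of the p53 targets to 0.24, so the list's median stayed below that of all genes while its sign turned. Among 5 CDK inhibitors tested none was called (0 had an unadjusted p under 0.05, and DESeq2 called 0).

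The other genes that fell were not on these lists. KIT, a receptor tyrosine kinase, fell from 233 and 277 CPM to 114 and 112 CPM (-1.18 ± 0.25, adjusted p = 0.0432) and stood at 39.4 CPM in the day 14 library. FHL1, a LIM-domain protein of the cytoskeleton, fell from 153 and 172 CPM to 89.4 and 47.2 CPM (-1.25 ± 0.26, adjusted p = 0.0367). GDF6, a ligand of the BMP family, fell from 26 and 22.3 CPM to 10.5 and 9.89 CPM. PSG5, a pregnancy-specific glycoprotein whose family members are close copies, fell from 22.3 and 26.2 CPM to 7.02 and 9.93 CPM. BPIFB4 fell from 3.89 and 7.99 CPM to 0.540 and 0.552 CPM, the largest fall (-3.43 ± 0.52, adjusted p = 0.00705). Without day 3 replicate C or day 8 replicate C no fall was called, without day 3 replicate B 1 was, and without day 8 replicate B 2 were.

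**Figure D3:**
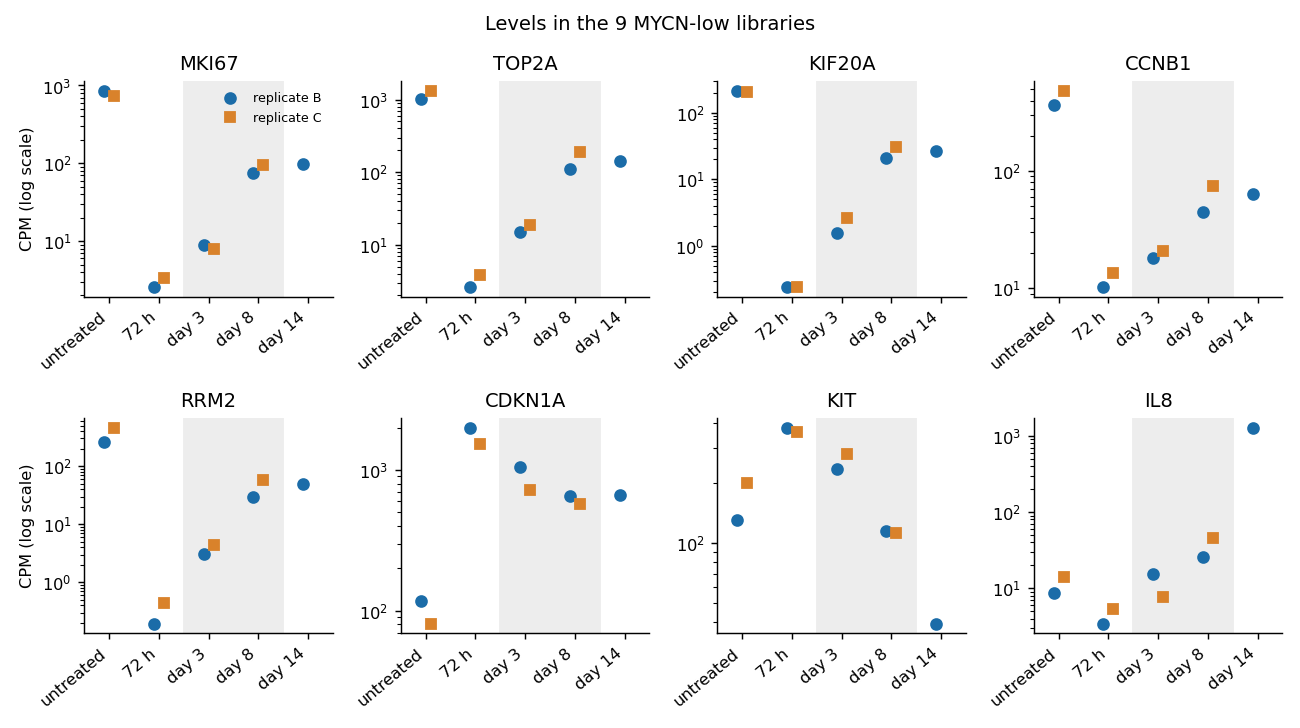
CPM on a log scale for 8 genes in the 9 MYCN-low libraries, replicate B as blue circles and C as orange squares, with day 3 and day 8 shaded. MKI67, TOP2A, KIF20A, CCNB1 and RRM2 rose between the shaded times and stayed below untreated levels, CDKN1A stayed above its untreated level, KIT fell, and IL8 reached 1283 CPM only in the day 14 library.

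Inflammatory genes had no call between day 3 and day 8. Of 47 senescence-associated secretory factors, 4 higher and 1 lower had an unadjusted p under 0.05, and DESeq2 called 1 higher. The median was 0.34, but 0.75 without day 3 replicate B and 0.11 without day 3 replicate C, and 1 gene was called without day 8 replicate B. IL8 differed by 1.63 ± 0.54 (adjusted p = 0.389), with both day 8 libraries above both at day 3. IL6 stood at 1.86 and 0.809 CPM, then 1.82 and 2.07 CPM, and IL1B at 3.08 and 1.92 CPM, then 3.93 and 3.69 CPM.

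Of 23 NF-kappaB subunits, inhibitors and targets none was called, although all 23 had a positive log2 fold change and 13 had both day 8 libraries above both day 3 libraries, against 16.8% of tested genes (median 0.35, and 0.59 with 1 call without day 8 replicate B). Without day 3 replicate C 18 of the 23 were positive. Of them 4 had an unadjusted p under 0.05 and DESeq2 called 1. SOD2, a mitochondrial superoxide dismutase induced by NF-kappaB, stood at 88.4 and 115 CPM, then 114 and 341 CPM, so that day 8 replicate C stood apart. VCAM1, an adhesion molecule, stood at 371 and 371 CPM, then 561 and 819 CPM (0.89 ± 0.44, adjusted p = 0.908). PLAT (tissue plasminogen activator) was likewise set apart by replicate C, at 220 and 693 CPM, then 252 and 2449.9 CPM.

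Against day 8, the single day 14 library had 2 genes called, 0.0135% of those tested, both higher. IL8 was at 1283 CPM (5.16 ± 0.64 above day 8, adjusted p = 0.0067) and IL1B at 52.5 CPM (3.78 ± 0.46, adjusted p = 0.0067). IL6 stood at 36.2 CPM, CXCL1 at 126 CPM and CCL2 at 390 CPM, none of which passed. The same library had MKI67 at 98.1 CPM and TOP2A at 141 CPM, close to day 8. With 1 library at day 14, that library and the time cannot be told apart, and without day 8 replicate B no gene was called and without day 8 replicate C 1 was.

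Other lists had no calls but medians away from 0. All 31 genes of cholesterol and fatty acid synthesis had a negative log2 fold change (median -0.30), and in 23 the day 8 libraries lay below both day 3 libraries, a pattern found in 21.8% of tested genes. Of 74 cytosolic ribosomal protein genes 73 were negative (median -0.33), and 52 did not overlap. Of 26 targets of YAP and TGF-beta signalling 14 lay below (median -0.49). Unadjusted p was under 0.05 for 10, 12 and 6 genes of these lists, all lower, and DESeq2 called 1, 0 and 1. Leaving out a library moved the medians, from -0.45 (day 8 C) to -0.24 (day 8 B) for cholesterol and fatty acid synthesis, from -0.45 (day 8 C) to -0.14 (day 8 B) for ribosomal proteins and from -0.70 (day 8 B) to -0.23 (day 3 B) for YAP and TGF-beta targets. Under ERCC scaling the 3 medians became 0.24, 0.26 and -0.04, below the 0.50 of all genes. In all, 27 of the 32 lists had no call.

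Against untreated MYCN-low cells, day 8 still differed in many genes. Of the 14793 tested, 1516 genes were higher (10.2%) and 2165 lower (14.6%). The comparison uses the same day 8 libraries as the one with day 3. All 69 G2 and mitosis genes, all 52 replication genes, all 42 histone genes and 20 of 25 recombination genes were called lower than in untreated cells. Of the 46 p53 targets 33 were called higher and none lower. The total of 3681 calls fell to 1948 without day 8 replicate B and to 2185 without day 8 replicate C. Under ERCC scaling it was 0 (edgeR; 584 genes had an unadjusted p under 0.05), which also ended the calls of the proliferation lists. The median of the G2 and mitosis genes was then -2.12, against -3.02 with TMM scaling.

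The size of the remaining gap differed by list. The median G2 and mitosis gene stood at 1.20% of its untreated mean level at 72 h, 2.13% at day 3, 12.2% at day 8 and 12.5% in the day 14 library. For DNA replication the medians were 12.3%, 13.6%, 25.0% and 24.4%, and for recombination genes 8.08%, 10.6%, 21.0% and 21.6%. Histone genes stood at 1.90%, 2.08%, 5.56% and 6.41%. The p53 targets stood at 402%, 263%, 219% and 275%. Among the 98 genes that rose, 95 were called lower than in untreated cells at day 8, against 14.6% of tested genes. The same day 8 libraries also chose the 98 genes. The day 14 library lay between the day 8 libraries in 70 of the 98, above both in 21 and below both in 7. The shares of these orders over all tested genes are not given here, so the counts do not set these genes apart.

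**Figure D4:**
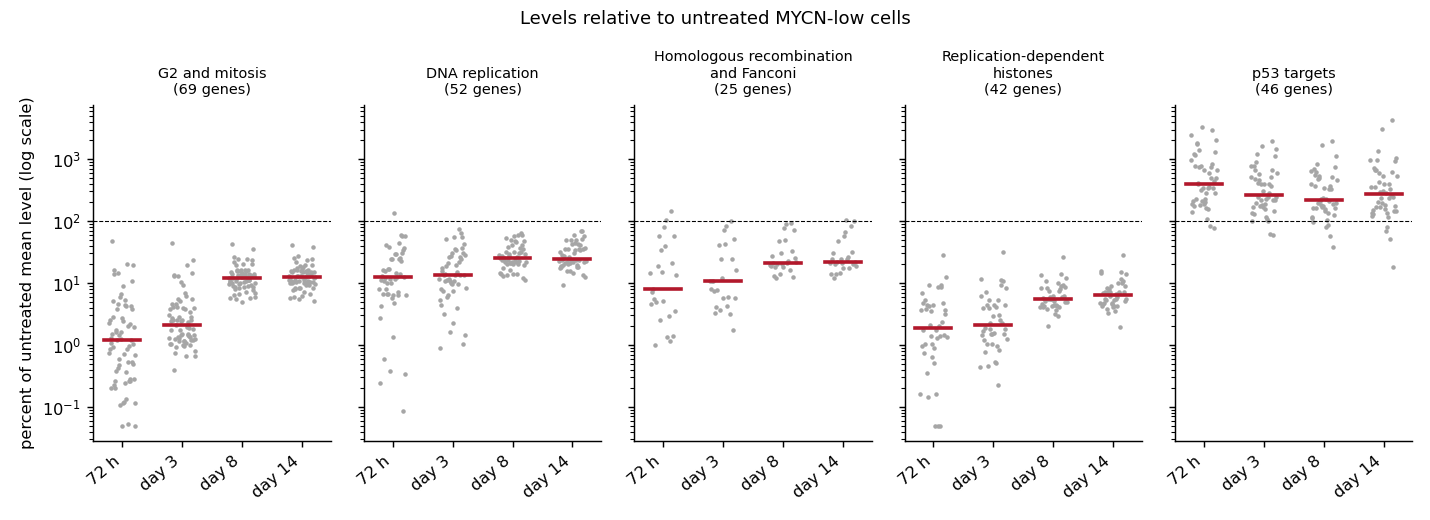
Mean level as a percent of the untreated MYCN-low mean (log scale) at 72 h, day 3, day 8 and day 14 for genes of 5 lists, 1 grey point per gene, with the list's median as a red bar and values under 0.05% drawn at 0.05%. The median of G2 and mitosis moves from 2.13% at day 3 to 12.2% at day 8 and 12.5% at day 14, while the median of the p53 targets stays above 100%, the untreated level.

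The genes named for the size of their change against untreated cells included matrix and histone genes. ACAN (aggrecan) was at 0 and 0.319 CPM in untreated cells, 1.76 and 4.81 CPM at day 3 and 18.0 and 10.5 CPM at day 8. TNFAIP6, a hyaluronan-binding protein, was at 0 and 0.120 CPM untreated, 4.43 and 1.87 CPM at day 3 and 11.1 and 5.41 CPM at day 8. PRSS35 was at 0.0549 and 0.239 CPM untreated and at 28.1 and 3.34 CPM at day 8, so its mean rests on replicate B. IGFBP7, a secreted binding protein, was at 0.440 and 0 CPM untreated and 13.5 and 4.31 CPM at day 8. At the other end, HIST1H3G was at 139 and 44.0 CPM untreated and 1.72 and 3.55 CPM at day 8, and HIST1H2BB at 68.5 and 31.8 CPM, then 0.737 and 1.28 CPM. FAM46B was at 9.56 and 8.10 CPM untreated and 0.295 and 0.241 CPM at day 8. MIR3687 differed between the untreated libraries themselves, at 28.3 and 0.718 CPM.

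MYCN-high cells over the same days served to test whether the change differed with MYCN state. The log2 fold change from day 3 to day 8 was called more positive in MYCN-low cells for 99 genes (0.669%) and more negative for 77 (0.521%). Of the 69 G2 and mitosis genes 1 was called different, KIF14, while 59 had a more positive change in MYCN-low cells. The list's median difference was 1.25, against -0.01 over all tested genes. No gene of that list was called in 7 of 8 fits that left out a library, while the DESeq2 Wald test called 8 and the fit with no filter on low counts 36. The list medians side by side were 2.51 in MYCN-low and 1.26 in MYCN-high cells for G2 and mitosis, 0.84 and 1.13 for DNA replication, 0.98 and 1.28 for recombination, 1.40 and 2.08 for histones, and -0.26 and -1.25 for p53 targets. KIF14 went from 70.8 and 69.2 CPM to 167 and 136 CPM in MYCN-high cells, a change smaller by 2.06 ± 0.46 (adjusted p = 0.0442). MKI67 went from 261 and 249 CPM to 587 and 504 CPM there, and its change did not differ at the threshold (2.22 ± 0.67, adjusted p = 0.111).

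KIAA0101 and IQGAP3 also rose more in MYCN-low cells, by 3.40 ± 0.69 (adjusted p = 0.0298) and 2.72 ± 0.48 (adjusted p = 0.0178). In MYCN-high cells KIAA0101 went from 35.4 and 34.0 CPM to 66.3 and 69.4 CPM, and IQGAP3 from 17.0 and 19.4 CPM to 34.1 and 25.6 CPM. Day 8 lay above day 3 in both states, from different day 3 levels. CDKN1A went from 505 and 487 CPM to 158 and 61.0 CPM in MYCN-high cells, and the difference between the states did not pass (1.64 ± 0.47, adjusted p = 0.0952). Of the p53 targets 3 were called different, C12orf5 (TIGAR), DRAM1 and KIAA0247, and of the histone genes HIST1H1E, HIST1H4C and HIST2H2BF. These 6 are named after their values were seen. Lysosome and autophagy genes had more such calls, 8 of 34, all with a more positive change in MYCN-low cells. Over all tested genes the shares called were 0.669% (more positive) and 0.521% (more negative). HIST1H4C stayed at 9.55 and 11.7 CPM, then 10.1 and 10.9 CPM, in MYCN-low cells.

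Other genes were named for the size of their difference between the states. EEF1A2, a translation elongation factor, stood at 0.905 and 0.759 CPM, then 3.29 and 4.52 CPM in MYCN-low cells, while in MYCN-high cells it went from 107 and 109 CPM to 31.9 and 10.5 CPM (difference 4.57 ± 0.80, adjusted p = 0.0176). KCNAB1, a potassium channel subunit, stood at 5.57 and 6.73 CPM, then 11.4 and 22.6 CPM, against 25.7 and 23.7 CPM, then 5.30 and 1.00 CPM in MYCN-high cells. LAMA4, a laminin chain, stood at 77.5 and 94.5 CPM, then 194 and 143 CPM, against 133 and 104 CPM, then 36.3 and 13.0 CPM. In each of these the MYCN-high libraries of day 8 lay below those of day 3.

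The opposite pattern was seen for LGR5, a receptor for R-spondins, at 10.1 and 24.7 CPM, then 3.49 and 10.3 CPM in MYCN-low cells, against 1.03 and 1.84 CPM, then 7.02 and 15.0 CPM in MYCN-high cells (difference -4.26 ± 0.83, adjusted p = 0.0261). GDF6, FHL1 and KIT, which fell in MYCN-low cells, differed by -2.77, -1.77 and -1.87. PDGFRB, a receptor for platelet-derived growth factor, stood at 32.7 and 41.0 CPM, then 48.5 and 28.4 CPM in MYCN-low cells, and went from 5.22 and 8.18 CPM to 37.9 and 47.4 CPM in MYCN-high cells. The 176 calls of this comparison became 34, 1, 155 and 15 without MYCN-low day 3 B, day 3 C, day 8 B and day 8 C, and 15, 22, 213 and 0 without the MYCN-high libraries in the same order.

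**Figure D5:**
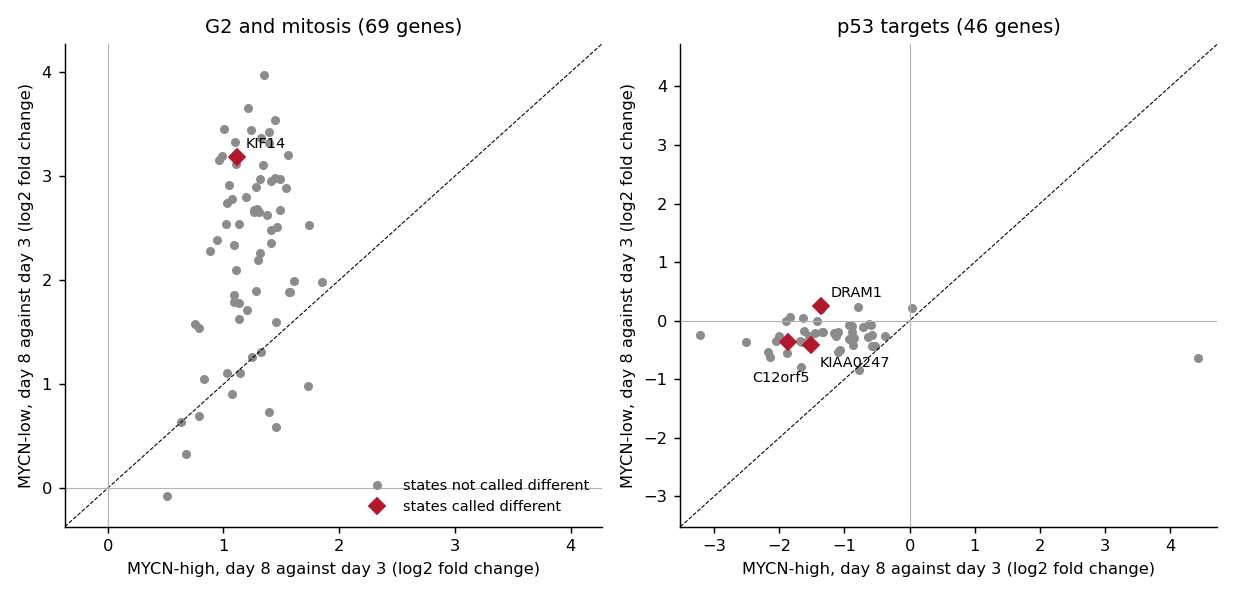
Log2 fold change from day 3 to day 8 in MYCN-low cells (vertical) against MYCN-high cells (horizontal) for G2 and mitosis genes (left) and p53 targets (right), 1 point per gene, with the dashed line marking equal change. Red diamonds are genes whose changes were called different between the states: KIF14 on the left, and DRAM1, C12orf5 and KIAA0247 on the right.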

How the data were processed

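RNA was depleted of ribosomal RNA and given ERCC spike-in RNA before library preparation, per the labels' protocols, which also give the molecule as polyA RNA. The authors deposited 1 table of raw read counts per gene. The submitters' processing notes name STAR 2.4.0h1, HTSeq and hg19, and strand handling is not given in the sources used here. Every column carried a sample's title. The 92 ERCC rows were left out, and 14793 of 23367 genes passed filterByExpr. edgeR 4.0.16 in R 4.3.3 fitted quasi-likelihood models with TMM scaling to all 19 libraries in 10 groups (9 residual degrees of freedom), so that the spread is shared. Benjamini-Hochberg adjusted p under 0.05 was the threshold, and each standard error was taken as the size of the log2 fold change over the root of the F statistic. DESeq2 1.42.0, other scalings, no filter, fewer libraries, each replicate left out and a replicate block were the alternatives. Scripts were tested on simulated data, where 40% of 2-fold and 90% of 4-fold changes from day 3 to day 8 were recovered. For the difference between states the shares were 11% and 77%. The lack of a call is therefore not a lack of change. Named genes were a fixed panel of 24, the 12 largest rises and falls with at least 5 CPM in the higher group, a log2 fold change of at least 1 and no overlap, up to 4 called genes by smallest p per list (otherwise up to 2 by level), 6 genes per direction for the difference between states and 4 for the other comparisons. Members and lists were chosen with earlier results of these data known. Promoter sequences are RefSeq's (GRCh38.p14), matched by symbol or synonym. Sequencing depth, 16530112 to 27638012 counts per library, limits genes at a few counts.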

Additional observations from a re-analysis of the deposited data

Results flagged for a closer look

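The change from day 3 to day 8 differed between MYCN-low and MYCN-high cells, by edgeR's test of the difference itself (adjusted p under 0.05), for 176 genes. Given here are the 25 of them that the naming rule chose or that belong to the p53 target and histone lists. Values are the log2 change in MYCN-low minus that in MYCN-high cells, with 2 libraries in each group. They compare changes and not levels. The change was more positive in MYCN-low for EEF1A2 (4.57), KCNAB1 (4.42), ANGPTL4 (3.77), KIAA0101 (3.40), LAMA4 (3.23), EFR3B (3.13), IQGAP3 (2.72) and KIF14 (2.06). The same held for the p53 targets DRAM1 (1.61), C12orf5 (1.49) and KIAA0247 (1.11), the lysosomal genes PSAP (1.73) and CD63 (1.11), and LGALS3BP (1.31). The list with the most calls was lysosome and autophagy, with 8 of 34 tested genes, not all named here. All 8 were more positive in MYCN-low, as were the 3 of 15 called for MHC class I presentation. Over all tested genes 0.669% were called more positive and 0.521% more negative. The total of 176 changed with the library left out, so these list counts are not settled. The change was more negative in MYCN-low for LGR5 (-4.26), MFAP4 (-3.55), SAMD11 (-2.92), GDF6 (-2.77), PDGFRB (-2.61), CSRP2 (-2.58), KIT (-1.87) and FHL1 (-1.77). It was also more negative for the histone genes HIST1H4C (-1.97), HIST1H1E (-1.62) and HIST2H2BF (-1.41).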

How the results depend on the processing

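The 98 genes higher and 6 lower at day 8 became 191 and 13 by the DESeq2 Wald test, 317 and 56 with no filter on low counts, 0 and 0 under ERCC scaling, 30 and 1 with only the 4 libraries, and 0 to 112 and 0 to 2 with a replicate left out. All 104 genes kept their sign in each of these. The 176 genes that differed between MYCN states became 666, 1006 and 0 under the first 3 of these settings and 0 to 213 with a replicate left out. Calls against untreated cells (3681) became 0 under ERCC scaling and 1948 to 5111 with a replicate left out. The 2 calls of day 14 against day 8 became 17, 70 and 0, and 0 to 1 with a replicate left out. Under ERCC scaling the difference from untreated cells turned to 0.22 for ODC1, 0.54 for ACLY and 0.33 for VIM. ERCC counts were 0.0116% to 0.537% of a library, and 0.0826% and 0.252% at day 3 against 0.0890% and 0.0961% at day 8. Single named genes and counts of calls in the proliferation lists gave 2411 values under an alternative, of which 1904 stayed the same. For a gene this means its direction and side of the threshold, and for a list a count within a set factor. A call was lost with the same direction in 418 and gained in 33, and in 3 the direction turned. The other 53 were list counts that changed by more than the set factor. A fit with the replicate block gave 118 higher and 11 lower genes, 324 between states, 3944 against untreated cells and 3 at day 14. From day 3 to day 8 it called 16 DNA replication genes in place of 9, and 1 gene each among E2F and G1/S regulators, AP-1 factors and YAP targets, which had none. Replicates B and C share only a letter in the labels, and their differences at day 3 and day 8 correlated at 0.315 across genes. The cause of these changes was not tested.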

Other observations

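Replicate B was above C at both times in 27 of 45 matrix glycoproteins and modifiers, against 30.9% of tested genes. The summed level of the list, which abundant members such as FN1 weigh on more than others, was 37820 CPM in replicate B and 25150 CPM in C at day 3, and 43380 and 22000 CPM at day 8. FN1 (fibronectin) stood at 7749.8 and 3402.5 CPM, then 10962 and 3671 CPM. None of the 41 tested genes of the list was called between the times (edgeR; 1 higher and 1 lower had an unadjusted p under 0.05, and DESeq2 called 0).

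SCG2 (secretogranin II), a protein of neuropeptide granules, stood at 172 CPM on average in untreated cells, 1164 and 1442 CPM at day 3 and 3066 and 2390.3 CPM at day 8, and its change did not pass (1.07 ± 0.45, adjusted p = 0.754). Against untreated cells it was higher by 3.99 ± 0.50 (adjusted p = 6.28e-05). The 19 endoplasmic reticulum chaperones all had a negative log2 fold change from day 3 to day 8 (median -0.13, and -0.02 with 7 positive without day 3 replicate B), with none called, 2 at an unadjusted p under 0.05 and 0 called by DESeq2. Under ERCC scaling their median was 0.35, against 0.50 for all genes.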
